A study of Mus musculus with 6 samples.

Results

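The genes described here encode the nuclear part of the mitochondrial respiratory chain and ATP synthase in early T cell progenitors (ETPs), the most immature cells of the thymus. They were chosen by name alone, as every row of the deposited gene table whose symbol begins with Nduf followed by a, b, c, s or v, is one of Sdha, Sdhb, Sdhc and Sdhd, or begins with Uqcr, Cox4 to Cox8 or Atp5. This gave 90 of 22609 genes: 42 for complex I, 4 for complex II, 8 for complex III, 19 for complex IV and 17 for complex V. Of these, 82 encode subunits or their isoforms, and the other 8 share only the prefix or help assembly (Ndufaf1, Ndufaf2, Ndufaf3, Ndufaf4, Cox7a2l, Cox4nb, Atp5s and Atp5sl). ETPs of C57BL/6 fetal thymus were gated as Lin-, CD4-, CD8-, CD44+, CD25- and ckit+, and their RNA was sequenced in 3 wild-type (control) and 3 E2Afl/flHEBfl/flIL7RCre (dKO) libraries. In the dKO cells floxed alleles of both E proteins, E2A (gene Tcf3) and HEB (gene Tcf12), are removed by a Cre recombinase driven from the Il7r locus, so deletion reaches only cells with a history of that locus being active. The dKO cells, unlike the controls, were also gated as YFP+, so gate and genotype cannot be told apart. The labels give neither the age of the fetuses nor whether each library came from its own animal, and the p-values therefore reflect only how far these libraries differ, which may be technical in origin.

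The respiratory chain passes electrons from NADH (complex I) and succinate (complex II) through coenzyme Q, complex III and cytochrome c to oxygen at complex IV. Complexes I, III and IV pump protons across the inner mitochondrial membrane, and complex V, the ATP synthase, uses the resulting gradient to make ATP. Complex II alone has no subunit encoded by mitochondrial DNA, and it is also an enzyme of the TCA cycle. In thymocytes, oxidative phosphorylation and glycolysis are both drawn on, and their balance is known to shift as cells divide and differentiate.

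Each gene has 1 value a group, a mean of normalised counts made by the authors, and a gene is said to rise or fall where the authors' adjusted p was under 0.05. The authors' deposited table holds neither a standard error nor a value per library. Normalised counts are not divided by gene length, so each gene is compared between groups and not with other genes. The deleted genes matched the labels: per the authors' deposited table Tcf3 fell 24.6-fold, from 8931 to 364, and Tcf12 fell 6.84-fold, from 3845 to 562. Reads counted on the genes were estimated at about 18.2 to 22.6 M per library in control and 24.3 to 27.0 M in dKO. Size factors, the scaling of each library, came from the spacing of the low means. Each library was taken to have the normalised total of its group, so these are not measured depths.

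Most respiratory chain genes stayed close to their control level in the dKO cells. Of 88 members tested, 10 rose, 8 fell and 70 did not pass per the authors' deposited table, so 20.5% were called, against 29.0% of all 16241 tested genes. By direction the background was 15.1% higher and 13.8% lower, against 11.4% and 9.09% of the members. Of the 4707 calls in the table, 4158 were of genes with a mean of at least 100, and 83 of the members reach that level. Among such genes, 18 of 83 members (21.7%) were called, against 40.4% of all. The median log2 change was -0.01 over the 86 members above the floor (3 reads over the group) and -0.01 over all tested genes. The members also spread less: 66 of the 86 (76.7%) lay within 1.25-fold of control, against 38.2% of all tested genes above the floor, and their median absolute log2 change was 0.15, against 0.46. With a mean of at least 100 the gap was smaller, at 77.1% of members and 48.9% of all tested genes within 1.25-fold. The median absolute log2 changes were then 0.13 and 0.33. Summed over all members, the normalised counts were 261828 in control and 255837 in dKO, 1.19% and 1.09% of all counts per the authors' deposited table. Only 5 of the 88 were called and changed by at least 1.5-fold, against 19.9% of all tested genes. With a mean of at least 100, 94.0% of members and 70.9% of all tested genes lay within 1.5-fold, called or not. No test was made over the list as a whole. In bulk samples, fewer cells that express a gene and less RNA per cell cannot be told apart.

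**Figure D1:**
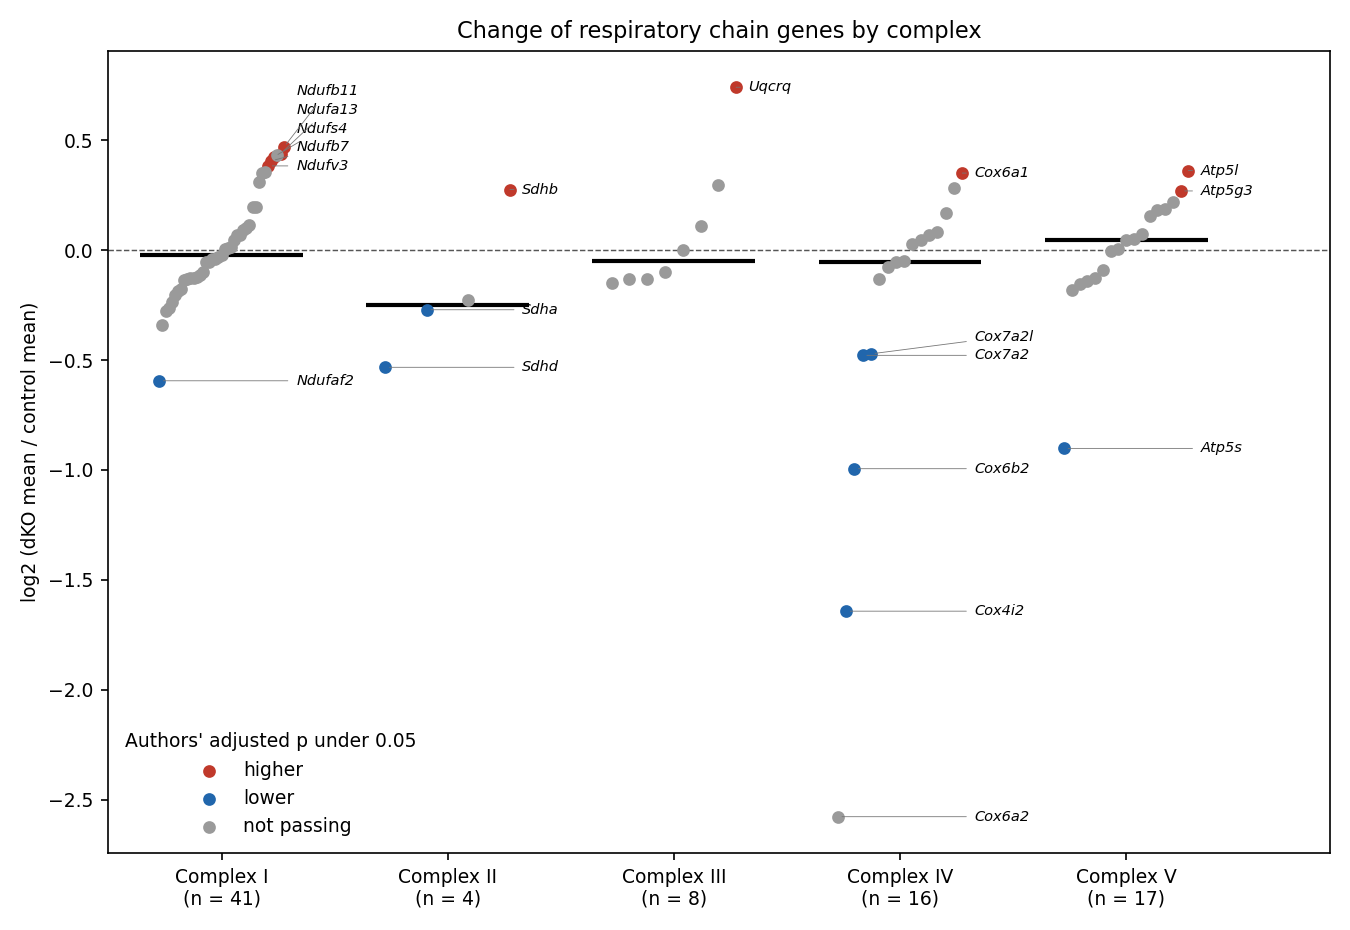
Each point is a respiratory chain gene, placed by complex (horizontal) and by its log2 ratio of dKO mean to control mean (vertical), coloured by the authors' adjusted p under 0.05, with a black bar at the median of the complex. Medians lie between -0.25 (complex II) and 0.05 (complex V), and the widest spread is in complex IV, where Cox6a2, Cox4i2 and Cox6b2 lie lowest.

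Complex I, the NADH dehydrogenase, had 5 genes that rose and 1 that fell among 42 tested, and a median log2 change of -0.02. Thus 14.3% were called, against 29.0% of all tested genes. All 5 that rose encode accessory subunits, which surround the catalytic core. Accessory genes are 30 of the 42 tested and core genes only 7, too few to set these kinds apart. Of the accessory genes 16.7% rose, against 15.1% of all tested genes and 21.2% of genes whose mean is 100 or more. Ndufb11, of the membrane arm, rose 1.38-fold, from 1653 to 2287 (authors' adjusted p = 0.00258), per the authors' deposited table. Ndufb7, of the same arm, went from 1320 to 1749, and Ndufa13, also known as GRIM-19, from 1323 to 1794 per the authors' deposited table. Ndufs4, a subunit of the arm that takes up NADH and a gene of inherited complex I deficiency, rose 1.34-fold from 1128 to 1516 per the authors' deposited table, and Ndufv3 of the same arm 1.30-fold from 1018 to 1329. The 5 rises lay between 1.30-fold and 1.38-fold. Changes of 1.27-fold to 1.35-fold in 3 other accessory genes did not pass: Ndufa1 (436 and 590, adjusted p = 0.0608), Ndufa11 (846 and 1081, adjusted p = 0.0620) and Ndufa3 (652 and 831, adjusted p = 0.0964) per the authors' deposited table.

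None of the 7 core subunits of complex I, which carry the flavin, the iron-sulphur clusters and the quinone site, passed the authors' test after adjustment, and 1 had an unadjusted p under 0.05. Among them, Ndufv1, which binds NADH, had 3582 and 3151 and Ndufs1, an iron-sulphur subunit, 3368 and 3480 (control and dKO) per the authors' deposited table. The core gene nearest to the threshold was Ndufs3, at 1565 and 1944 (authors' adjusted p = 0.0546 per the authors' deposited table). Among accessory subunits that did not pass, Ndufa9 had 4193 and 3831, Ndufa10 3816 and 3758 and Ndufb8 2293 and 2090 per the authors' deposited table. Over 29 accessory genes above the floor the log2 changes ran from -0.28 to 0.47, and over the 7 core genes from -0.21 to 0.31. Ndufa4, classed by its name with complex I but known as a subunit of complex IV, had 2268 and 2287 per the authors' deposited table.

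The complex I member that fell was Ndufaf2, an assembly factor that binds a late intermediate of the complex. It went from 447 to 296 per the authors' deposited table, a fall of 1.51-fold (authors' adjusted p = 0.0321). Whole reads solved from its dKO mean put the 3 dKO libraries at 281, 283 and 324 normalised counts (292, 304 and 375 reads), and those of control could not be solved uniquely. Ndufaf1, Ndufaf3 and Ndufaf4 did not pass, with log2 changes of -0.24, -0.10 and -0.34. Ndufs5 was at 0.700 in control (2 reads, in the library of size factor 0.952) and 0 in dKO, under the floor in both groups. No fold is given for Ndufs5. The lowest control mean among the other accessory and core genes of complex I was 436 (Ndufa1). How reads were counted is not given, so the low value of Ndufs5 need not mean absent expression, and this was not tested.

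Complex II, succinate dehydrogenase, had the largest share of called genes, 3 of 4. The share was 29.0% over all tested genes and 40.4% over those with a mean of at least 100, and 4 genes are too few to be set apart from these. The 3 called genes moved in opposite directions. Sdhd, a membrane anchor of the complex, fell 1.45-fold from 4650 to 3215 (authors' adjusted p = 7.42e-06) per the authors' deposited table, the smallest adjusted p of all members. Sdha, the flavoprotein that oxidises succinate, fell 1.21-fold from 12363 to 10248 (authors' adjusted p = 0.0182 per the authors' deposited table). Sdhb, the iron-sulphur subunit that takes electrons from Sdha, rose 1.21-fold from 3537 to 4283 (authors' adjusted p = 0.0392) per the authors' deposited table. Sdhc, the other membrane anchor, had 2173 and 1858 per the authors' deposited table, without passing. With only 4 genes, the median of -0.25 is the midpoint of Sdha (-0.27) and Sdhc (-0.23), and the summed ratio was 0.863. The assembly factor genes Sdhaf1, from 411 to 599, and Sdhaf2, from 1170 to 1625, both rose per the authors' deposited table. Sdhaf1 serves the iron-sulphur clusters of Sdhb and Sdhaf2 the flavin of Sdha. The direction of Sdha thus differed from that of its assembly factor gene, and the direction of Sdhb did not.

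The bases before the start of 4 called genes show what their promoters hold, beginning with complex II genes that moved in opposite directions and followed by the supercomplex gene Cox7a2l, which fell, and the complex IV gene Cox6a1, which rose. Sequences are from RefSeq on build GRCm38.p6, not the mm9 build of the deposited data, 5′ to 3′ on the strand of the gene, and each is the longest run of the 250 bases before the start that lies in no annotated exon. Capitals mark the motifs searched, on either strand: the palindromic NRF1 motif, the same with any base at the fifth position, CCGGAAG for ETS factors and GABP, AAGATGGC for YY1, and the E-boxes CAGCTG and CACCTG, to which E proteins bind. The second NRF1 pattern contains the first.
Sdhd, chr9:50603850-50603909, minus strand: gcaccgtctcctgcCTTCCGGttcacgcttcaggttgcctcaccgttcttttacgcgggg
Sdhb, chr4:140961021-140961202, plus strand: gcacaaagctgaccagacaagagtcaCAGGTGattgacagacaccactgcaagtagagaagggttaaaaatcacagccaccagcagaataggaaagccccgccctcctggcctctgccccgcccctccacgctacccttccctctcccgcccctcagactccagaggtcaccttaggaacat
Cox7a2l, chr17:83514334-83514583, minus strand: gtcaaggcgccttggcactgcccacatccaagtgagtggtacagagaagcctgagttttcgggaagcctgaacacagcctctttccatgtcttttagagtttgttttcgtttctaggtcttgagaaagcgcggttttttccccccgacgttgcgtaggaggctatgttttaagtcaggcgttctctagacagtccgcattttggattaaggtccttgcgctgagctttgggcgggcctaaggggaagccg
Cox6a1, chr5:115348982-115349129, minus strand: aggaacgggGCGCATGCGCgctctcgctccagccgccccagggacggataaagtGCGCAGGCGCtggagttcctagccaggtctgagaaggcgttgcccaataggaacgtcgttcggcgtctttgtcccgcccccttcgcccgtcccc
In these stretches Sdhd has 1 ETS match, Sdhb 1 E-box and Cox6a1 NRF1 matches that begin 162 and 117 bases before the start, while Cox7a2l has none of the motifs.

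The promoter table matched 71 of the 90 members, with 76 promoters, and its window runs from 250 bases before to 50 after the start. Of the 76, 19 held the looser NRF1 pattern, against 4.60% of all 32851 promoters in the table. CCGGAAG was in 22.4% against 8.86%, AAGATGGC in 11.8% against 2.75%, and the exact NRF1 motif in 7.89% against 0.971%. NRF1, GABP and YY1 are known regulators of nuclear genes for mitochondrial proteins. The E-box CAGCTG was in 7.89% of member promoters against 16.3% of all, and CACCTG in 19.7% against 20.2%. Of 9 promoters of genes that rose, 4 held CCGGAAG, 3 CACCTG, 2 the looser NRF1 pattern, 1 the exact NRF1 motif, 1 AAGATGGC and 0 CAGCTG. Of 6 promoters of genes that fell, 2 held the looser NRF1 pattern, 1 CCGGAAG and 0 any of the others. These are matches of letters in a window and not sites of binding. Of the genes for these regulators, Nrf1 had 2546 and 2860 and the GABP subunit gene Gabpb1 2431 and 2349 per the authors' deposited table, and neither passed. Gabpb2, for a related subunit, rose 1.43-fold from 1701 to 2438.

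Complex III, which moves electrons from coenzyme Q to cytochrome c, had 1 gene called of 8 (12.5%, against 29.0% of all tested genes). Uqcrq, a small subunit beside cytochrome b, rose 1.67-fold from 1037 to 1735 (authors' adjusted p = 0.00044) per the authors' deposited table, the largest rise of any member. The rest lay within 1.25-fold of control. The structural core proteins Uqcrc1 and Uqcrc2 had 12590 and 11515, and 5384 and 5025, and the Rieske iron-sulphur protein Uqcrfs1 had 4018 and 4342 per the authors' deposited table. Uqcrh had 1760 in each group, and Uqcr10, the small subunit next nearest to the threshold, had 1252 and 1540 (authors' adjusted p = 0.0786 per the authors' deposited table). Cyc1, the cytochrome c1 gene, which the name rule does not take, had 4126 and 3954 and did not pass per the authors' deposited table.

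Complex IV, cytochrome c oxidase, differed most between kinds of gene. Of its 10 subunit genes used in most tissues, 1 rose and 1 fell (20% called, against 29.0% of all tested genes). Cox6a1 rose 1.28-fold from 4069 to 5190 (authors' adjusted p = 0.0233) and Cox7a2 fell 1.39-fold from 1011 to 725 (authors' adjusted p = 0.0145) per the authors' deposited table. The others lay between -0.13 and 0.17 on the log2 scale, among them Cox4i1 (4900 and 5187), Cox5a (4662 and 4487) and Cox8a (2360 and 2656) per the authors' deposited table. Cox7a2l, the related gene of a factor that joins complexes III and IV into supercomplexes, fell 1.39-fold from 3709 to 2675 (authors' adjusted p = 0.000192) per the authors' deposited table.

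The isoform genes of restricted tissue use had low counts, and those called were lower in the dKO cells. Cox4i2, the isoform of the regulatory subunit 4 known from lung and from low oxygen, was at 123, 159 and 193 normalised counts in the control libraries and at 42.4, 45.6 and 64.0 in the dKO libraries, as solved from the deposited means and given, here and for other genes, in order of the size factor of the library. All control libraries lay above all dKO libraries, with means of 158 ± 35.3 and 50.7 ± 11.7 (SD, n = 3 each). Cox4i2 fell 3.12-fold (authors' adjusted p = 0.00034 per the authors' deposited table), and without any single library the log2 change stayed between -1.85 and -1.47. The other gene for subunit 4, Cox4i1, did not pass.

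Cox6b2, an isoform known from testis, fell 1.99-fold from 204 to 102 (authors' adjusted p = 0.0180) per the authors' deposited table, while Cox6b1 had 1700 and 1782. Its dKO libraries were at 74.2, 93.0 and 140, and the control libraries could not be solved uniquely. Cox6a2, the heart and muscle partner of Cox6a1, was at 13.4, 15.8 and 20.5 in control and at 3.85, 1.86 and 2.60 in dKO. The groups of Cox6a2 did not overlap, but with 47 and 9 reads in all it did not pass (authors' adjusted p = 0.187 per the authors' deposited table). Of 8 members with whole reads in both groups, 2 did not overlap between groups, Cox4i2 and Cox6a2. The 8 include Cox7b2 and Cox8c, which were at 0 in all libraries and were not tested. Among 6478 tested genes with whole reads in both groups, a set that leaves out such genes, the share was 25.5%.

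Cox7a1, the muscle isoform, overlapped between the groups, at 10.9, 15.8 and 10.7 in control and 12.5, 14.9 and 18.2 in dKO. Ndufa4l2, a relative of Ndufa4 known as a target of low oxygen signalling, ranged from 13.7 to 36.4 in control and from 4.65 to 48.2 in dKO, so its libraries differed more within a group than the group means did. Leaving out single libraries took its log2 change from -0.58 (without the dKO library of size factor 1.038) to 0.71, and it also turned without the control library of size factor 0.952. It did not pass. Cox7b, whose testis isoform is Cox7b2, had 1014 and 979. Cox8b had 1 read in control and 2 in dKO, and Cox8c and Cox7b2 had 0 in control and in dKO, per the authors' deposited table.

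**Figure D2:**
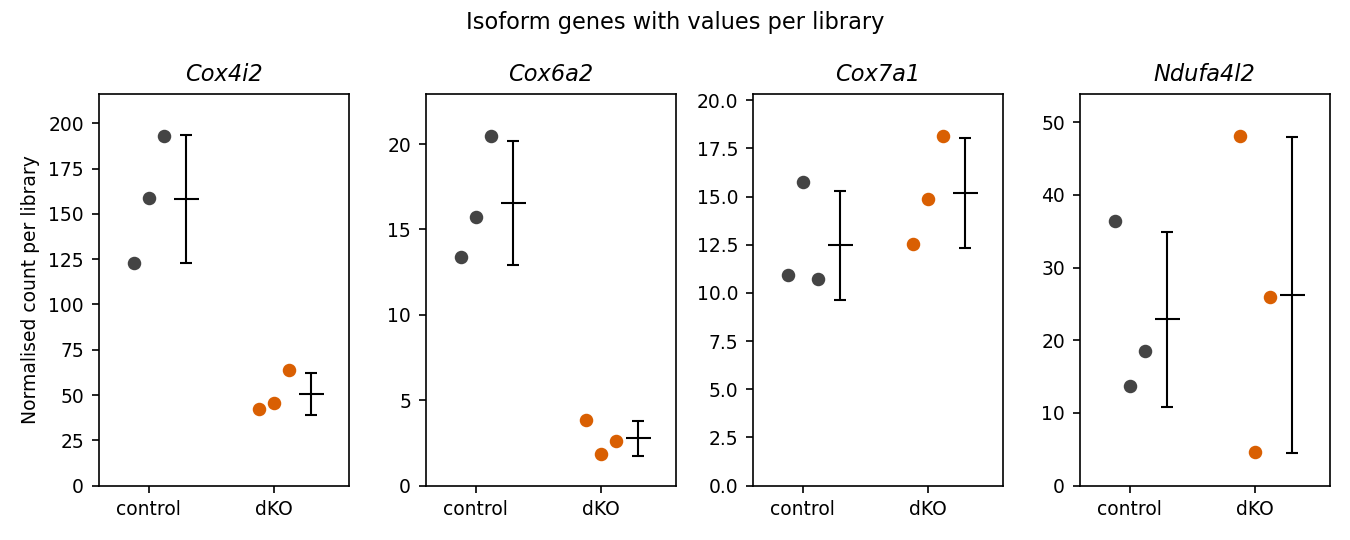
Normalised count per library (vertical) of the isoform genes whose reads could be solved in both groups, with mean and SD beside the points (n = 3 each). Cox4i2 and Cox6a2 are lower in all dKO libraries, and the points of Cox7a1 and Ndufa4l2 overlap between the groups.

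Complex V, the ATP synthase, had 2 genes that rose and 1 that fell of 17 (17.6% called, against 29.0% of all tested genes). Among the 5 genes of the F1 head, which makes ATP, 0 passed the authors' test, also at an unadjusted p under 0.05: the catalytic beta subunit Atp5b had 37446 and 34361, Atp5a1 26789 and 24070, and the shaft subunit Atp5c1 9520 and 9833 per the authors' deposited table. The 4 stalk genes did not pass either (1 at an unadjusted p under 0.05), with log2 changes from 0.00 (Atp5j) to 0.22 (Atp5h). Of the 3 genes for the same subunit c, which forms the rotating ring, Atp5g3 rose 1.21-fold from 3291 to 3968 (authors' adjusted p = 0.0452), while Atp5g1 had 3000 and 2720 and Atp5g2 5269 and 4950 per the authors' deposited table. Summed, the 3 genes had 11559 and 11637, a ratio of 1.01. Atp5l, subunit g of the membrane part, rose 1.29-fold from 1674 to 2152 (authors' adjusted p = 0.0429) per the authors' deposited table. Atp5s, which encodes a coupling factor and no core subunit, fell 1.87-fold from 233 to 125 (authors' adjusted p = 0.0329 per the authors' deposited table), with dKO libraries at 147, 105 and 121. The sign of the median of this complex, 0.05, turned to -0.04 with both groups scaled to the same total.

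**Figure D3:**
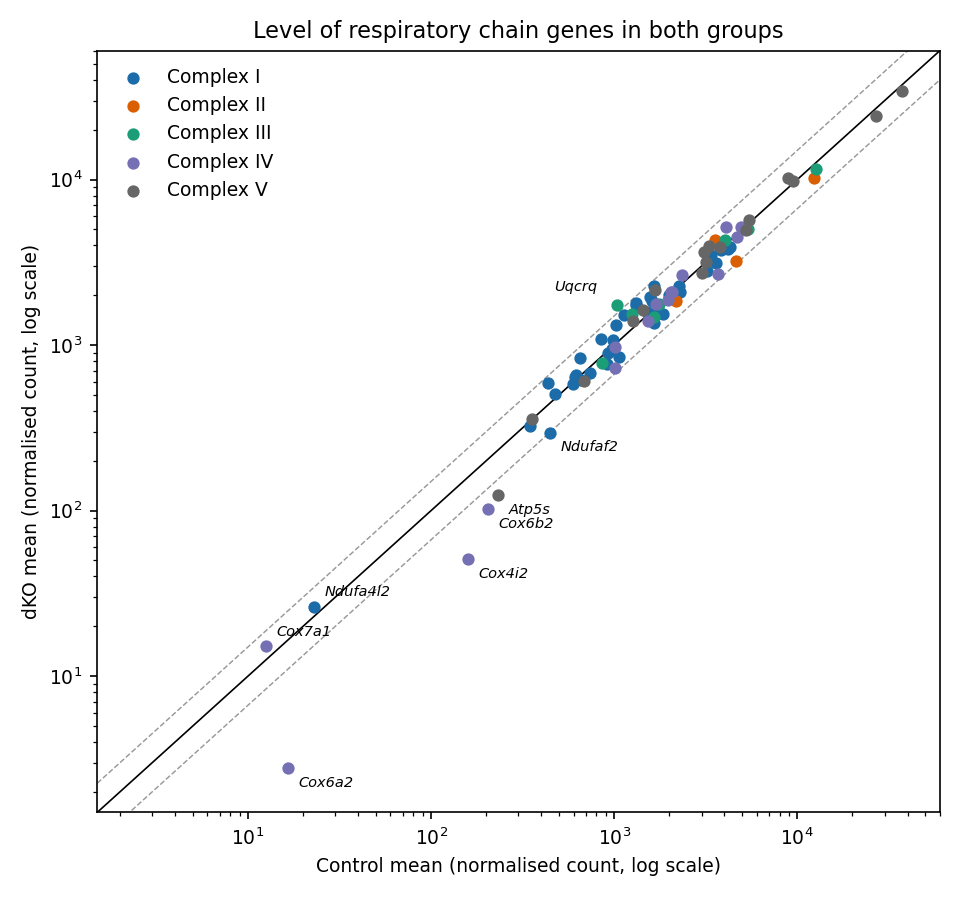
Control mean (horizontal) against dKO mean (vertical) of the members above the floor, both as normalised counts on log axes, coloured by complex, with a solid line of equal level and dashed lines at 1.5-fold. Of the 86 genes 80 lie between the dashed lines, and the 6 outside are Uqcrq above and Cox6a2, Cox4i2, Cox6b2, Atp5s and Ndufaf2 below.

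Transcript length was that of the longest protein-coding transcript of each symbol in GENCODE annotation, which need not be the one expressed. Its median was 1025 bases for the 10 that rose, 931 for the 8 that fell and 918 for the 63 with a mean of at least 100 that did not pass. Of 83 members with a mean of at least 100, 81 had a length, and their log2 change and length had a Spearman correlation of -0.29 across genes, against 0.01 over 9156 tested genes. Pearson's r with the log of length was only -0.14 for the members. Median log2 changes were 0.05 for 44 members under 1000 bases and -0.15 for 10 members of 2000 bases or more, and 0.01 in both classes over all tested genes. The share of members that rose was 11.4% under 1000 bases, 18.5% from 1000 to 2000 and 0% of the 10 above. Over all tested genes with a mean of at least 100 these shares were 18.2%, 21.7% and 21.9%. The shares that fell were 9.09%, 11.1% and 10% of members, and 12.2%, 19.9% and 19.6% of all such genes. Genes share their libraries and are not independent, so these are descriptions. For GC content of the transcript the correlation was 0.25 for members and -0.01 over all tested genes.

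In lists of genes that mostly help to build the complexes, 2 of 8 were called for complex I, 2 of 4 for complex II, 1 of 5 for complex III, 0 of 15 for complex IV and 1 of 6 for complex V, against 29.0% of all tested genes. The complex I list leaves out Ndufaf1 to Ndufaf4, given above. The complex III list also counts Cyc1, and that of complex V also counts partners of the synthase. Of 15 complex IV assembly genes tested 0 passed the authors' test and 3 had an unadjusted p under 0.05, with Lrpprc at 3622 and 3300 and Cox15 at 2460 and 2104 per the authors' deposited table. Of 8 complex I assembly genes, Tmem126a rose from 417 to 670 and Acad9 fell from 1848 to 1298 per the authors' deposited table, while Foxred1 (1608 and 1983) and Tmem186 (945 and 806) did not pass. Uqcc, of complex III assembly, fell from 1444 to 986, the 1 call in its list of 5, and Bcs1l had 675 and 527. Among 6 partners of the ATP synthase, Atpif1, which encodes the inhibitor that stops the synthase from running backwards, fell 1.63-fold from 2154 to 1323 (authors' adjusted p = 1.2e-06) per the authors' deposited table. The remaining 5 did not pass, among them Tmem70 (1790 and 1527) and Atpaf2 (1374 and 1335).

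Genes that feed the chain were called at 4 of 16 (cytochrome c and coenzyme Q) and 6 of 21 (pyruvate entry and the TCA cycle), no more often than all tested genes (29.0%) or genes whose mean is 100 or more (40.4%). Of 16 genes of cytochrome c and coenzyme Q, 4 fell and 0 rose: Coq4 2.11-fold from 545 to 259, Dhodh 1.58-fold, Coq9 1.40-fold and Coq5 1.32-fold per the authors' deposited table. Cycs, cytochrome c itself, had 5183 and 4943 and Etfa 3870 and 3592, and neither passed. Of 21 genes of pyruvate entry and the TCA cycle, 5 fell and 1 rose. Idh2, the NADP-dependent isocitrate dehydrogenase, fell 2.97-fold from 10652 to 3589 and Dlat 1.62-fold (authors' adjusted p = 8.87e-51 and 2.6e-08 per the authors' deposited table). Suclg2 fell 1.40-fold, while Dlst rose from 3113 to 4171 and Mdh2 (12070 and 11488) and Cs (9401 and 9299) did not pass per the authors' deposited table.

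Chaperone and import genes also had more falls than rises. Of 13 mitochondrial chaperones and proteases, 7 fell and 0 rose, led by Hspd1 (HSP60), 1.54-fold from 22853 to 14810, and Hspa9, 1.51-fold from 16616 to 10994, per the authors' deposited table. The protease subunit gene Afg3l1 fell 1.39-fold, and Trap1 (5983 and 5379) and Yme1l1 (3426 and 3847) did not pass. Of 26 genes of protein import and cristae, 9 fell and 2 rose. Chchd6 fell 2.20-fold from 584 to 266 and the import oxidoreductase gene Chchd4 1.68-fold from 1392 to 830 per the authors' deposited table, while Immt had 4591 and 4588. Phb2, a prohibitin, fell 1.35-fold, and Tomm20 had 4195 and 3892. The medians were -0.34 for chaperones and proteases and -0.22 for import. Falls called were 13.8% of all tested genes and 19.1% of genes whose mean is 100 or more, against 53.8% and 34.6% in these lists, whose genes all reach that mean and which were chosen with earlier results of these data known.

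Carriers had 6 of 13 genes called (46.2%), mitochondrial DNA upkeep 4 of 10, biogenesis regulators 5 of 18 (27.8%) and peroxide defence 2 of 10, against 29.0% of all tested genes and 40.4% of genes whose mean is 100 or more. Of 13 carriers and porins, 4 fell and 2 rose: the aspartate-glutamate carrier Slc25a12 fell 2.19-fold from 3688 to 1687 and the citrate carrier Slc25a1 1.97-fold. The outer membrane channel Vdac1 fell 1.42-fold, while the ATP/ADP carrier Slc25a4 rose 1.41-fold from 6042 to 8539 per the authors' deposited table. The ATP/ADP carrier gene with higher counts, Slc25a5, had 26774 and 26103 and the phosphate carrier Slc25a3 9685 and 8499, and neither passed. Of 10 genes of mitochondrial DNA upkeep, 2 rose and 2 fell, with the polymerase Polg up 2.03-fold from 1031 to 2089 and the helicase Peo1 (Twinkle) down 1.82-fold from 1279 to 703 per the authors' deposited table. Ssbp1 fell 1.38-fold, and Polrmt (1741 and 1585) and Dguok (702 and 624) did not pass. Of 10 genes of peroxide and superoxide defence, Gpx1 fell 2.40-fold from 26319 to 10976 and Txnrd2 1.55-fold per the authors' deposited table, while Cat (4852 and 4155) and Txn2 (3648 and 3924) did not pass.

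Among 18 regulators of mitochondrial biogenesis, 3 fell and 2 rose. Myc, which drives many mitochondrial genes, fell 2.70-fold from 9311 to 3451, and Pprc1, a PGC-1 related coactivator, fell 1.43-fold from 3400 to 2376 per the authors' deposited table. The second rise besides Gabpb2 was that of Ppargc1a. Ppargc1a, which encodes PGC-1alpha, had 1, 0 and 4 reads in the control libraries and 53, 44 and 52 in the dKO libraries, from 1.71 to 45.7 normalised counts (authors' adjusted p = 7.53e-05 per the authors' deposited table). All dKO libraries lay far above all control libraries. Its fold of 26.8 rests on 5 control reads, and was 17.8 without the control library of size factor 0.952 and 75.2 without that of 1.024.

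**Figure D4:**
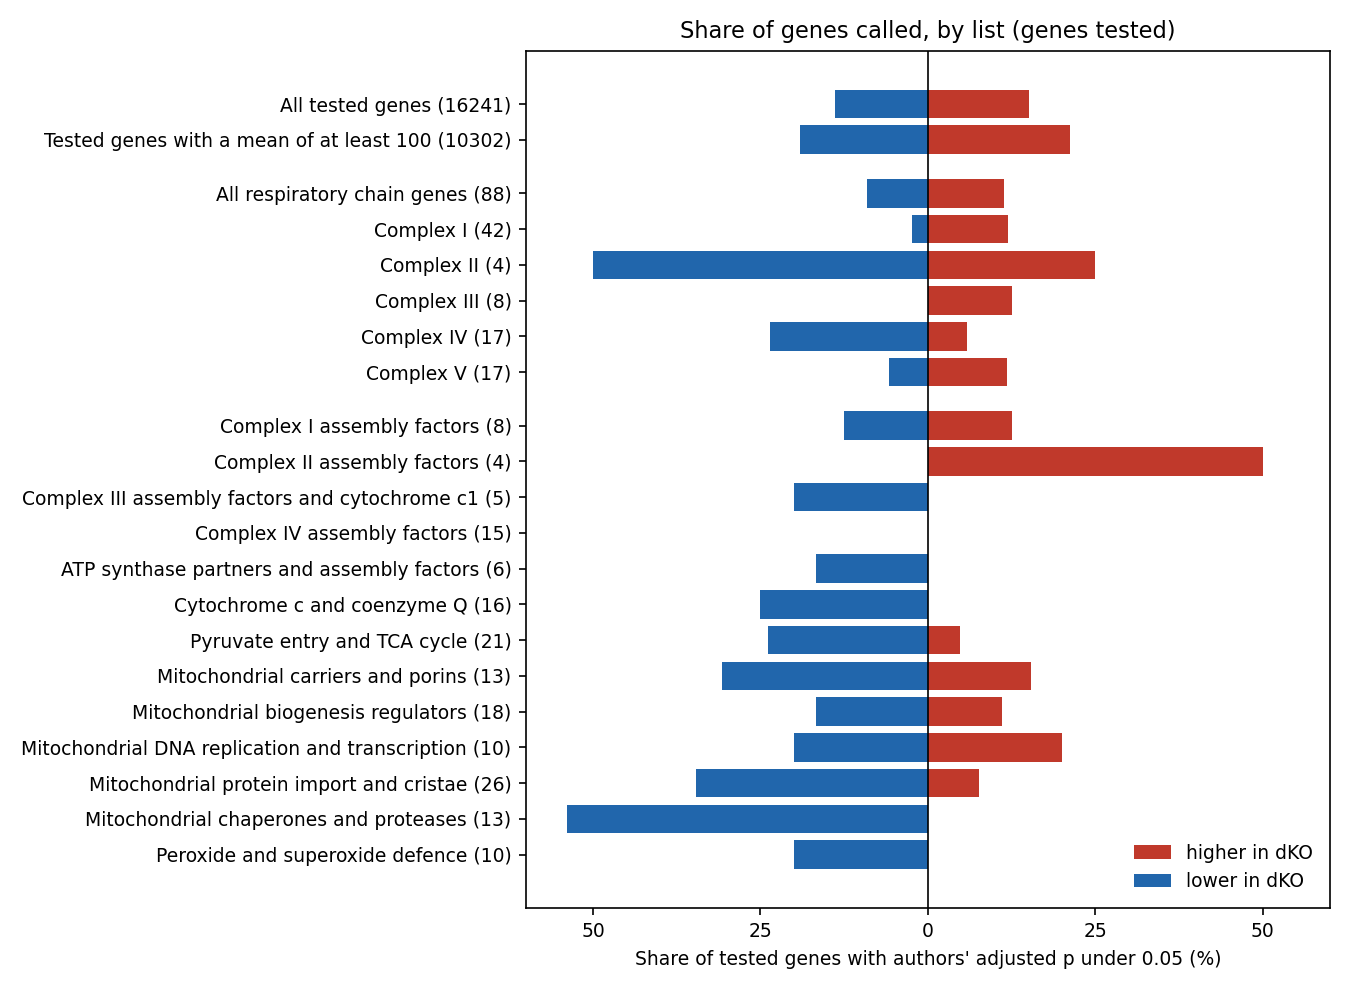
Share of tested genes that rose (right, red) or fell (left, blue) in dKO by the authors' adjusted p, threshold 0.05, for all tested genes, the respiratory chain complexes and related mitochondrial lists, with the number tested in brackets. All 7 called chaperone and protease genes fell, and 20.5% of respiratory chain genes were called in both directions together.

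Of tested markers of other cell types, 60% of myeloid, 33.3% of B cell, 16.7% of erythroid and 10% of thymic stroma genes were called. The share over all tested genes was 29.0%, so only the myeloid list lay well above it. Of 10 tested myeloid markers 5 fell and 1 rose, and their summed level went from 8828 to 2410, mostly Mpo, with Cd14 at 0. The erythroid list summed to 1237 and 151, and Beta-s, a globin gene with 1032 and 12.3, was the 1 call of 6 tested. Of 11 markers with a row, 5 were at 0 in both groups, among them Hba-a1 and Hbb-b1. How reads shared by similar genes were counted is not given, so a 0 for these globin genes need not mean absence. B cell markers summed to 1279 and 1088, mainly Cd79b, with Pax5 and Ms4a1 at 0, and 2 of 6 tested fell. Thymic stroma markers summed to 2992 and 2578, mainly Pecam1, the 1 of 10 tested that fell, with Pdgfra and Cdh5 at 0. The median log2 change of this list was 0.27, and Epcam (227 and 343), Krt8 (42.6 and 67.1), Krt5 (2.83 and 11.1), Col1a1 (4.86 and 13.8) and Col3a1 (0 and 16.1) had higher means in dKO without passing. Of 6 gate genes Kit (14094 and 19067) rose and Cd4 (104 and 34.8) fell. Kit and Cd44 (3220 and 2765) had high counts in both groups per the authors' deposited table, and so was Il2ra (8417 and 8536), although CD25 was excluded by the sort. The part of these cells in the values above was not tested.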

How the data were processed

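RNA from 3 control and 3 dKO libraries was amplified with a low-input SMARTer kit and sequenced on an Illumina HiSeq, per the labels' protocols. The submitters' processing notes name bcl2fastq 1.8.4, TopHat2 2.0.14, DESeq version 2 and build mm9, without roles. Which program counted reads on which gene models is not given in the sources used here, nor is the handling of reads shared with pseudogenes, which many members have. Per the file headers, the deposited signal columns are mean normalised counts per group, the fold column is the ratio of dKO to control, and the p-value and adjusted p-value are the authors' own. Redoing the Benjamini-Hochberg adjustment gave the deposited values within 4.08e-07. The deposited log2 column holds spreadsheet errors and was not used, so log2 changes were computed from the means.

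Groups were taken from the sample titles. The table has 22609 rows, of which 16241 were tested, and 6368 were at 0 in both groups. The floor, 3 reads over a group, equals 1.21 (control) and 0.963 (dKO) normalised counts. Of the 90 members, 2 were at 0 in both groups and 2 tested ones, Ndufs5 and Cox8b, were under the floor and entered no median. No replicate fit was possible, so the authors' test (adjusted p under 0.05) is the only one. Each group mean is a weighted sum of whole reads of its libraries, and low means were solved for those reads, kept only where the solution was unique (all values up to 100, fewer above, none tried over 500). This was tested on simulated data. Libraries are named by size factor, since labels do not tie them to replicates. Intervals of counting error were not computed. Amplified reads without molecular identifiers are not independent molecules, so floors cover counting error only.

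The members, the lists and the rule for naming genes were chosen with earlier results of these data known. All called members of each complex are named, as are the 3 others with the highest means, with both genes of isoform pairs, and per related list up to 3 called and the 2 others with the highest means. Others were named after their values were seen. The values of 1 member that the rule names are not reported here. Python 3.11.15, pandas 2.3.3, numpy 2.4.6 and scipy 1.17.1 were used. Alternatives were other thresholds, a minimum mean of 100, a minimum change of 1.5-fold, subunits only, other scalings and a pseudocount of 1.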

Additional observations from a re-analysis of the deposited data

How the results depend on the processing

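The counts of 10 genes higher and 8 lower depend on the threshold, since most called changes are small. At an adjusted p under 0.01, 3 were higher and 3 lower. With a Bonferroni adjustment 0 were higher and 1 was lower, Sdhd. Asking for at least 1.5-fold left 1 higher and 4 lower, and keeping only structural subunits left 5 lower. A looser threshold, a minimum mean of 100 with the adjustment redone, and symbols with -ps (0 rows) kept both counts within 1.5 times (10 to 15 higher, 8 to 9 lower). Median log2 changes moved by less than 0.13 in each complex and each alternative. That value is the median standard error of single members implied by the authors' p-values, and not the error of a median. Scaling both groups to the same total shifts all log2 changes by -0.08. Centring on the median of tested genes with a mean of at least 100 shifts them by -0.01. The smallest change of the 18 called members was 0.27 (Atp5g3), so neither shift could turn the direction of any of them. With structural subunits only and, in the same alternative, Ndufa4 placed in complex IV, the medians of all members, complex I and complex IV went from below 0 to 0.01 (in complex IV this is the value of Ndufa4 itself), so no direction is given for them. Leaving out each library could be done only for Cox4i2 (log2 change -1.85 to -1.47), Cox6a2 (-2.89 to -2.36), Cox7a1 (0.14 to 0.49) and Ndufa4l2 (-0.58 to 0.71), as an alternative chosen after seeing the data, and it was not run for medians. No paired analysis was possible because the table holds no value per replicate. Genes at low depth, such as Cox6a2, can differ by several-fold and not pass.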

Other observations

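Several called members start close to another gene on the opposite strand, and these neighbours were looked at after the values of the members were known. Of 15 called members with a promoter in the RefSeq table, 5 have an exon of such a measured neighbour in the 250 bases before their start. Of the 5 neighbours 0 passed the authors' test, against 29.0% of all tested genes, and 5 genes are too few to differ from that share. Timm8b, beside Sdhd, had means of 443 in control and 444 in dKO in the authors' deposited table, while Sdhd fell. Ccdc127, beside Sdha, had 1340 and 1240, and Ercc8, beside Ndufaf2, had 386 and 293 in the authors' deposited table. Rbm10, beside Ndufb11, had 3571 and 3792, and Tssk6, beside Ndufa13, had 84.97 and 56.6 in the authors' deposited table. The difference between a member and its neighbour was not tested, and without a stated strand setting, reads of overlapping genes cannot be told apart.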
